A study of Homo sapiens with 8 samples.

Results

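PRMT9 knockdown (KD) in Molm13 cells was profiled by poly(A) RNA sequencing in 4 of the 8 libraries of the series, chosen by their labels: 2 libraries of cells carrying a short hairpin RNA against PRMT9 (shPRMT9) and 2 of cells carrying a control hairpin (shCtrl). Molm13 is an established human acute myeloid leukemia (AML) line with a KMT2A-MLLT3 fusion and an internal tandem duplication of FLT3. All 4 cultures, controls included, received doxycycline (Dox induction in the labels), which switches on the hairpin, and the genotypes are given as WT and PRMT9 knockdown. Other libraries of the series, 4 in number, hold the same comparison in THP1 cells and were used below only to test where Molm13 differed. The study numbered its PRMT9 hairpins 1 and 2 as well, so the labels do not say whether the numbers of these libraries mark cultures or hairpins. No label says that the libraries came from separate cultures, so p-values measure only the spread between these samples, which may be technical.

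The 4 libraries held 18720950 to 21241742 reads assigned to genes, and 16446 of the 57992 genes in the table had enough reads to be tested. Replicates lay close together, with a biological coefficient of variation of 0.0201, and mitochondrially encoded genes took 6.24% to 6.69% of the reads. The counts of replicates differed by more than sampling noise, with a mean chi-square per gene of 1.77 between the shCtrl libraries and 1.35 between the shPRMT9 libraries (1 is expected from sampling alone), so all were kept as separate libraries. Of 15 genes chosen to mark the line, 14 were tested, and none of the 10 T cell and NK cell markers passed 10 reads in any library. PAX5, listed as a B cell marker, was present at 866 and 829 reads in shCtrl and 741 and 821 in shPRMT9. FCRLA, an Fc receptor-like protein and the other tested B cell marker, had 61 and 56 reads in shCtrl and 144 and 161 in shPRMT9 libraries and rose by 1.38 ± 0.16 on the log2 scale. The remaining 8 of 10 B cell markers had at most 10 reads in any library, with MS4A1 at 0 in all.

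PRMT9 is an arginine methyltransferase, one of a family of enzymes that add methyl groups to arginine residues of RNA-binding, splicing and translation proteins. Loss of such an enzyme can reach transcription along several routes. Type I interferon signaling turns on interferon-stimulated genes (ISGs) through a promoter element called ISRE. Shortage of amino acids or stress in the endoplasmic reticulum (ER) raises translation of the factor ATF4, which drives genes for amino acid import, amino acid synthesis and tRNA charging. HIF1A drives glycolytic and angiogenic genes at low oxygen through the hypoxia response element, and E2F factors drive the genes of S phase in dividing cells.

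Promoter sequences of genes in which these elements occur are shown to set the elements beside the expression values below. Each runs 5' to 3' on the strand of the gene from 250 bases before to 50 bases after the RefSeq start (build GRCh38.p14), with the matched motif in capitals. The first pair, from the ISGs with the largest rise, holds the ISRE core GAAANNGAAA. IFI44L lies on the plus strand at chr1:78620198-78620497 and has 2 copies, which begin 164 and 73 bases before the start. EPSTI1 lies on the minus strand at chr13:42992192-42992491 and has 1 copy, which begins 50 bases before the start.
IFI44L: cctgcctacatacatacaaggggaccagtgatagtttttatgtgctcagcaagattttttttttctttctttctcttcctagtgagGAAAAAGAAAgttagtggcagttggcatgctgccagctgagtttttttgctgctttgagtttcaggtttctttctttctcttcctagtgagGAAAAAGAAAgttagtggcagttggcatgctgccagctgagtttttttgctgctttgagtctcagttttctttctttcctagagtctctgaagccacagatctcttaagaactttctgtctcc
EPSTI1: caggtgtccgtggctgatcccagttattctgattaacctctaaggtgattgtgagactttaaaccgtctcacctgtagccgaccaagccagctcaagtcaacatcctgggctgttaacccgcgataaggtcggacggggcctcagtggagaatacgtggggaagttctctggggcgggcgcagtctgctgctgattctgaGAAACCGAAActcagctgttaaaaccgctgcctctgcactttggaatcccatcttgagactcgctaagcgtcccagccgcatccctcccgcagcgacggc
The promoter of ALDOC, a glycolytic aldolase, holds 3 matches to the hypoxia response element core ACGTG, counted on both strands (minus strand gene, chr17:28576846-28577145). A pair of these matches overlap in a palindrome that is also the E-box CACGTG, which always holds the hypoxia core.
ALDOC: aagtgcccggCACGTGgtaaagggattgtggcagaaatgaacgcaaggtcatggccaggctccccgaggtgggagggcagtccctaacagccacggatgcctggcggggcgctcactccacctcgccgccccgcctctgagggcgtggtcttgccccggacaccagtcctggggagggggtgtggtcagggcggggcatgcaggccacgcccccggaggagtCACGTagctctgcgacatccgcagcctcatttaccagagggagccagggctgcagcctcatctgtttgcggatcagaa
CHAC1, a glutathione-degrading enzyme (plus strand, chr15:40953221-40953520), and ASNS, asparagine synthetase (minus strand, chr7:97872359-97872658), are ATF4 target genes with the ATF4 element core TGATGNAA. In ASNS the match begins 68 bases before the start, and in CHAC1 it is on the opposite strand to the gene, 209 bases before the start.
CHAC1: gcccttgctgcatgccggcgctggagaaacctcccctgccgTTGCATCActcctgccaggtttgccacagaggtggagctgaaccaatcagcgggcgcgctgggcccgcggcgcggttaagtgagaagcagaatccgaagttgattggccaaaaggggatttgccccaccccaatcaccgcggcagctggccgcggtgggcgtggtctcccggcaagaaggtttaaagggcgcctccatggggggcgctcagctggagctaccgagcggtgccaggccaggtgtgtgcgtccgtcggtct
ASNS: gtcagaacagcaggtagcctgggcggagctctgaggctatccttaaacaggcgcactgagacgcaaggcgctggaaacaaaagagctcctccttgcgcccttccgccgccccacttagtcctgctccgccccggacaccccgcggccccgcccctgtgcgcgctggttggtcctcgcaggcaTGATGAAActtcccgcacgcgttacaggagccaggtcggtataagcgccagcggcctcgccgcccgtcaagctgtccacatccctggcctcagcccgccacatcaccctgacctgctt
Over the 9670 of 11769 tested protein-coding genes with a RefSeq promoter, the ISRE core was found on either strand in 3.01%, the hypoxia core in 27.0%, the E-box in 10.4% and the ATF4 core in 1.65%. In the list of ISGs, 24 of 37 tested genes with a promoter (64.9%) held the ISRE core, and so did 18 of the 29 called ones (62.1%). Of the protein-coding genes that fell after KD, 22 of 1133 (1.94%) held it. The hypoxia core was present in 18 of 39 hypoxia-inducible and glycolysis genes (46.2%), in 11 of the 19 called ones (57.9%) and in 27.5% of the genes that fell. Of the protein-coding genes that rose and had a promoter (1165 of 1472), 5.49% held the ISRE core. The hypoxia core was in 21.2% of them, below the share of all tested genes. In the ATF4 list, 7 of 32 tested genes with a promoter (21.9%) held the ATF4 core, and 5 of the 19 called ones (26.3%) did. Fewer than 80% of the genes that rose and of the ATF4 list had a promoter sequence, so these shares are incomplete. The lists were made of genes already tied to these pathways, so high shares in them reflect that choice and say nothing about the response to KD.

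PRMT9 itself (chromosome 4, positions 147637785 to 147684230 of hg38, minus strand) had 332 and 289 reads in the shCtrl libraries and 41 and 56 reads in the shPRMT9 libraries. Both KD libraries lay far below both controls. PRMT9 fell 6.39-fold, a log2 fold change of -2.68 ± 0.14 (SE, n = 2 libraries a group; edgeR quasi-likelihood test with Benjamini-Hochberg adjustment, adjusted p = 1.16e-21). It ranked second by size among the falls of called genes with at least 20 reads on average and no overlap between groups.

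Other arginine methyltransferases moved as well. PRMT2, a nuclear coactivator with weak enzymatic activity, had 625 and 606 reads in shCtrl and 1701 and 1845 in shPRMT9 libraries and rose by 1.53 ± 0.05 (log2 fold change ± SE). PRMT3, which methylates a protein of the small ribosomal subunit, fell by 0.82 ± 0.06, and PRMT6, which methylates histone H3, fell by 0.89 ± 0.09. The enzymes of widest activity, PRMT1 and PRMT5, stayed within 1.5-fold, with log2 fold changes of -0.20 ± 0.03 and -0.23 ± 0.03. WDR77, the obligate partner of PRMT5, fell by 1.03 ± 0.07. CARM1 (-0.10 ± 0.04) and PRMT7 (0.16 ± 0.05) differed little, and PRMT8 had no read. FBXO11, an F-box protein and not an established methyltransferase, was at 0.22 ± 0.04. Of 18 tested genes on the list of methyltransferases and cofactors, 1 rose and 5 fell, PRMT9 included.

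Across the genome 1878 genes rose and 1866 fell at a false discovery rate (FDR) under 0.05, a fold change above 1.5 and an RPKM (reads scaled to gene length and library size) above 1 in at least 1 library, which is 11.4% and 11.3% of the genes tested. These are the shares against which the gene lists below are read. Without the limits on fold change and RPKM, 66.9% of genes passed the FDR limit, and 41.2% had both shPRMT9 libraries above both shCtrl libraries and 40.8% had both below. The middle of the distribution did not move, with a median log2 fold change of 0.00047, while the 1st and 99th percentiles were -1.45 and 2.47. Rises reached further than falls, since at a limit of 2-fold, 796 genes rose and 506 fell.

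**Figure D1:**
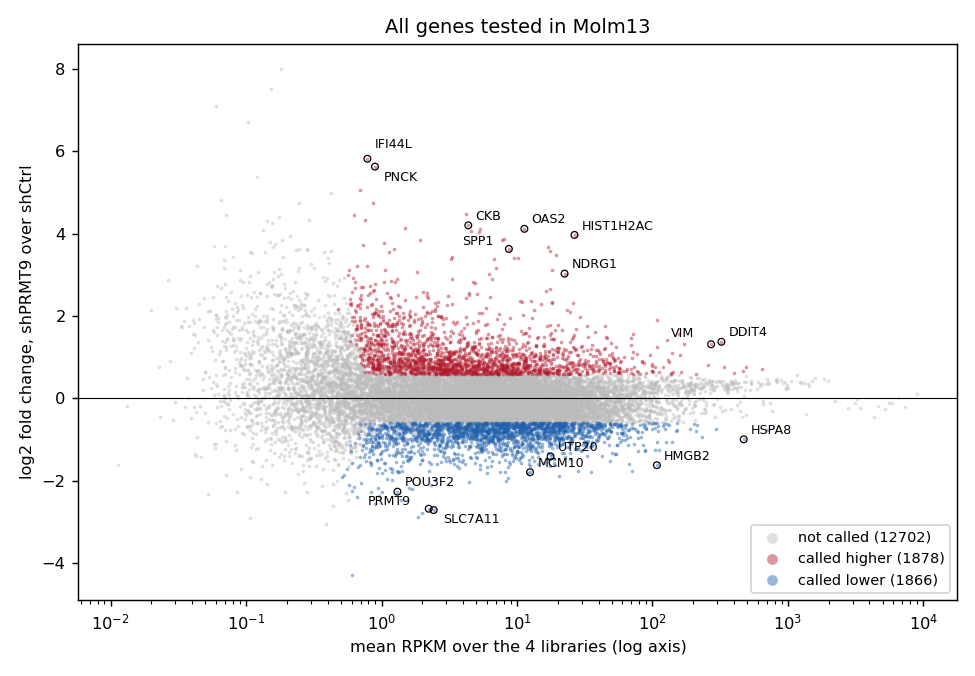
Each dot is 1 of the 16446 genes tested, with mean RPKM over the 4 Molm13 libraries on the x axis (log scale) and the log2 fold change of shPRMT9 over shCtrl on the y axis. Red dots are the 1878 genes that rose and blue dots the 1866 that fell, and the named genes are ones the text describes.

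Among the named genes with at least 20 reads on average, the largest rise was in IFI44L, an ISG, which had 5 and 6 reads in shCtrl and 299 and 333 in shPRMT9 libraries (5.81 ± 0.21). PNCK, a calcium/calmodulin-dependent kinase, had 3 and 4 reads in shCtrl and 166 and 191 after KD (5.62 ± 0.28). EHD2, a protein of caveolae, rose by 4.33 ± 0.29 and CKB, the cytosolic creatine kinase, by 4.20 ± 0.15. In all of these the shCtrl libraries had at most 32 reads, so the size of the fold change rests on few reads. The other genes with the largest rises were EPSTI1, OAS2, IFI44, IFIT1, the histone gene HIST1H2AC and the noncoding transcript LL21NC02-1C16.2, at 3.97 to 4.15.

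Among called genes with at least 20 reads on average and no overlap between groups, the largest fall was in SLC7A11, the cystine importer that feeds glutathione synthesis, with 818 and 803 reads in shCtrl and 119 and 129 in shPRMT9 libraries (-2.71 ± 0.08). POU3F2, a neural transcription factor, had 228 and 195 reads and then 43 and 45 (-2.26 ± 0.15). CHAC1 fell by 2.25 ± 0.35 from 41 reads in both controls to 9 and 8, and GPR180, a component of TGF-beta signaling, by 2.09 ± 0.09. Of the other 5 genes, PRMT9 aside, 3 are pseudogenes of expressed parents (POLR3GP1, RAD51AP1P1 and HMGB1P5), whose reads cannot be told from those of the parent. HMGB1 fell by 1.46 ± 0.03.

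**Figure D2:**
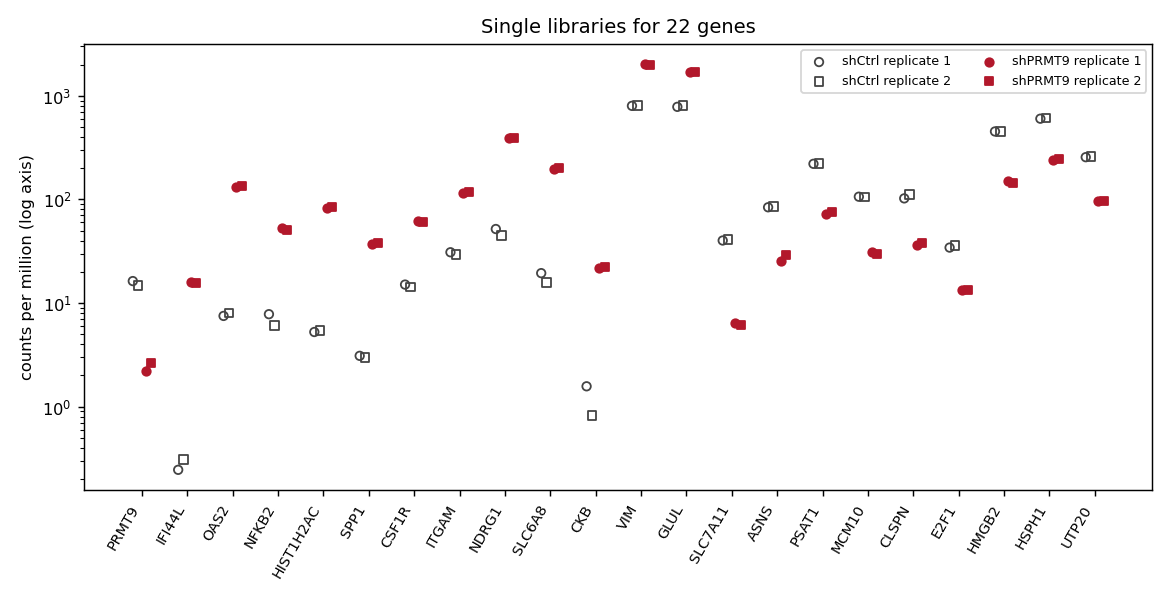
CPM (log axis) in each of the 4 Molm13 libraries for 22 genes from the groups described in the text, with shCtrl libraries as open grey symbols and shPRMT9 libraries as red symbols. In every gene shown the 2 shPRMT9 libraries lie on 1 side of both shCtrl libraries.

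Among abundant genes the rises were smaller but carried more RNA. DDIT4, an inhibitor of mTORC1, had 7573 and 7227 reads in shCtrl and 17983 and 20373 in shPRMT9 libraries (1.37 ± 0.02). VIM, the intermediate filament vimentin, rose by 1.31 ± 0.02, and S100A4, a calcium-binding protein of motile cells, by 1.32 ± 0.03. AZU1 and LYZ, which encode the granule protein azurocidin and lysozyme, rose by 0.75 ± 0.02 and 0.66 ± 0.02. Of the abundant genes that fell, HSPA8, the constitutive HSP70 chaperone, went from 61419 and 60342 reads to 28761 and 32445 (-0.99 ± 0.02), and DDX21, a nucleolar RNA helicase, fell by 0.93 ± 0.02. HNRNPF, HNRNPA2B1 and ILF2, which are RNA-binding proteins, fell by 0.79 ± 0.02, 0.65 ± 0.02 and 0.76 ± 0.03.

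ISGs rose although no interferon gene passed the filter on low counts. Of 46 ISGs on the list, 35 rose and 0 fell, with a median log2 fold change of 1.26, and their summed level went from 1940 and 1960 CPM (reads scaled to library size) in shCtrl to 3360 and 3370 in shPRMT9 libraries. OAS2, a sensor that makes the activator of RNase L, had 153 and 157 reads in shCtrl and 2482 and 2892 after KD (4.11 ± 0.06), and IFIT1, which binds foreign RNA caps, rose by 4.04 ± 0.10. None of the 13 interferon genes on the list exceeded 10 reads in any library. IFNB1 had 0 and 1 reads in shCtrl and 3 and 2 in shPRMT9 libraries, and 9 of the 13 had no read at all. Of 29 genes of nucleic acid sensing and interferon signaling, 12 rose and 0 fell. IFIH1, a sensor of double-stranded RNA, rose by 2.08 ± 0.08, DHX58 by 2.20 ± 0.23, and the transcription factors IRF7 and IRF9 by 1.95 ± 0.08 and 1.91 ± 0.18. The genes of the DNA sensing pair differed: TMEM173 (STING) rose by 0.63 ± 0.03, while MB21D1 (cGAS) had 1522 and 1344 reads in shCtrl and 1315 and 1528 in shPRMT9, and its groups overlapped (-0.01 ± 0.05).

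NF-kB genes moved with the ISGs. Of 31 tested, 15 rose and 1 fell (median 0.77). NFKB2, the precursor of the p52 subunit, had 159 and 119 reads in shCtrl and 983 and 1079 in shPRMT9 libraries (2.89 ± 0.08), and its partner RELB rose by 2.43 ± 0.15. The subunits of the canonical pathway stayed within 1.5-fold, with RELA at 0.19 ± 0.05 and NFKB1 at -0.26 ± 0.04. Of 33 tested cytokines, chemokines and receptors, 17 rose and 1 fell (median 0.92), among them the chemokine CXCL10 (3.88 ± 0.15), the B cell survival factor TNFSF13B (1.75 ± 0.04) and the inflammatory cytokine IL1B (1.74 ± 0.18). Of 21 tested genes of MHC class I antigen presentation 3 rose and 1 fell, near the genome-wide shares: HLA-E rose by 1.07 ± 0.03, whereas the peptide transporter TAP2 fell by 0.96 ± 0.07. TNFSF9 and CD86, T cell ligands, rose by 1.53 ± 0.06 and 1.41 ± 0.13, and ULBP1, a ligand of the NK cell receptor NKG2D, fell by 1.31 ± 0.18. Of 12 tested genes of MHC class II antigen presentation 4 rose and 1 fell (median 0.57), with the invariant chain CD74 at 0.80 ± 0.04, the peptide exchange subunit HLA-DMA at 1.20 ± 0.15, the protease CTSS at 0.85 ± 0.03 and the promoter factor RFXAP at -0.96 ± 0.10. CIITA, the master regulator of MHC class II, was low, at 78 and 66 reads in shCtrl and 111 and 90 in shPRMT9 libraries (0.48 ± 0.17).

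Histone genes showed the highest median of all lists. Replication-type histone genes encode the histones that package new DNA in S phase, and their mRNAs normally end in a stem-loop in place of a poly(A) tail, so poly(A) libraries count only the minor polyadenylated forms. Of 23 listed, 15 were tested, 13 rose and 0 fell, with a median of 2.11. HIST1H2AC (chromosome 6, positions 26124145 to 26139116) had 107 and 106 reads in shCtrl and 1532 and 1803 in shPRMT9 libraries (3.97 ± 0.07). HIST1H2BD rose by 3.68 ± 0.12 from 41 and 44 reads to 514 and 581, and the linker histone HIST1H1C by 3.11 ± 0.13. HIST1H4C, named after its value was seen, had 7 and 11 reads in shCtrl and 10 and 7 after KD, and its groups overlapped (-0.08 ± 0.50). Together the 23 genes took 22.7 and 22.9 CPM in shCtrl and 188 and 191 CPM in shPRMT9 libraries. Over all genes named HIST1 in the table, 18 of 67 were tested and 14 rose. With a minimum of 50 reads on average fewer of the listed genes remained and 7 rose. The share of total RNA from tail-less histone mRNAs was not measured in these libraries.

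The genes of DNA replication moved the opposite way. Of 45 tested, 32 fell and 0 rose (median -0.87), and the summed level dropped from 6530 and 6460 to 3660 and 3690 CPM. MCM10, which loads onto the origin as the helicase is activated, had 2166 and 2055 reads in shCtrl and 583 and 637 in shPRMT9 libraries (-1.79 ± 0.05). The helicase cofactors GINS2 and CDC45 fell by 1.78 ± 0.08 and 1.49 ± 0.06, and ORC6, a subunit of the origin recognition complex, by 1.35 ± 0.07. Thymidylate synthase, TYMS, fell by 1.14 ± 0.03 from 5880 and 5702 reads to 2464 and 2797. Enzymes of purine, pyrimidine and one-carbon synthesis fell in 9 of 26 cases and rose in 0, with the mitochondrial folate enzyme MTHFD1L at -1.11 ± 0.04.

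The regulators of S phase entry fell with them. Of 26 tested G1 cyclins, CDK inhibitors and E2F genes, 14 fell and 2 rose (median -0.62). E2F1 had 699 and 705 reads in shCtrl and 247 and 284 in shPRMT9 libraries (-1.40 ± 0.07), and E2F2, E2F7 and CCNE2, the cyclin E2 gene, fell by 1.59 ± 0.10, 1.34 ± 0.05 and 1.59 ± 0.06. The 2 that rose were the cyclin D1 gene CCND1 (0.92 ± 0.10) and CDKN1A, the p21 inhibitor of CDKs (0.65 ± 0.03). Mitosis and spindle genes fell in 27 of 44 cases and rose in 0 (median -0.71). CDC20, an activator of the anaphase-promoting complex, went from 1906 and 2004 reads to 686 and 792 (-1.40 ± 0.05), and SPC25, a kinetochore protein, fell by 1.25 ± 0.09.

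Of 35 tested genes of the DNA damage response and R-loop handling, 18 fell and 0 rose (median -0.60). CLSPN, which brings CHEK1 to its activating kinase at stalled forks, had 2087 and 2176 reads in shCtrl and 671 and 807 in shPRMT9 libraries (-1.53 ± 0.05). The kinases ATR and CHEK1 fell by 1.05 ± 0.04 and 1.10 ± 0.05, and TIMELESS, of the fork protection complex, by 1.06 ± 0.04. Outside this list, BTG2, an antiproliferative gene, rose by 1.77 ± 0.04, and PMAIP1, which encodes the death protein NOXA, fell by 0.95 ± 0.08.

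**Figure D3:**
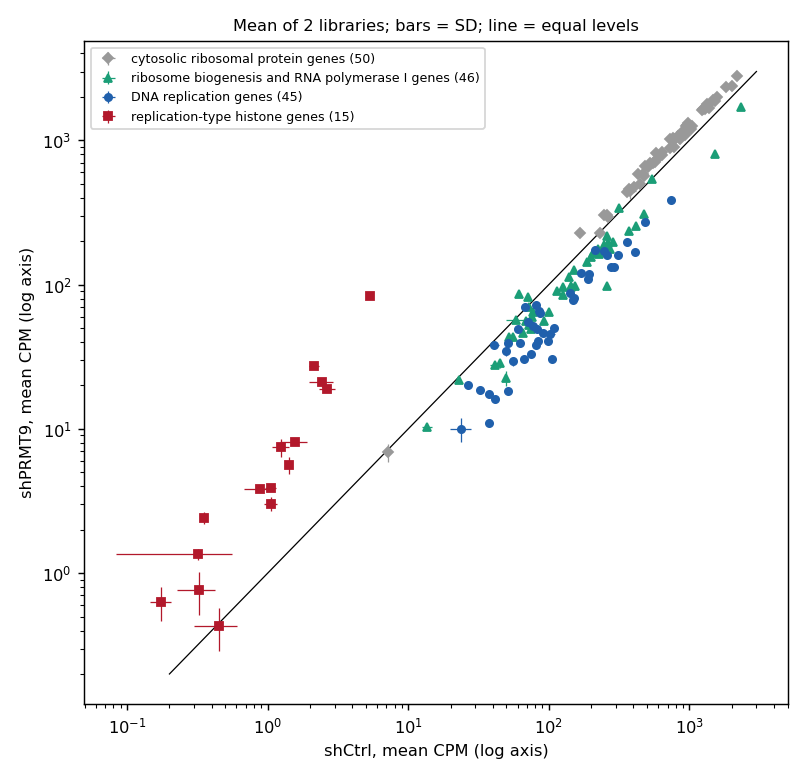
Mean CPM of 2 shPRMT9 libraries (y axis) against mean CPM of 2 shCtrl libraries (x axis), both on log scales, with bars for the SD and a line of equal levels. Of 15 histone genes 14 lie above the line, replication genes lie below it with 1 exception, and 48 of 50 ribosomal protein genes were higher by the FDR limit alone.

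Ribosome biogenesis and ribosomal proteins separated. Of 46 genes of ribosome biogenesis and RNA polymerase I, 12 fell and 0 rose (median -0.42), and their summed level went from 11100 CPM in both shCtrl libraries to 7990 and 7960. UTP20, of the small subunit processome, had 5214 and 5080 reads in shCtrl and 1816 and 2065 in shPRMT9 libraries (-1.41 ± 0.03), and UTP15 fell by 1.15 ± 0.07. None of the 50 cytosolic ribosomal protein genes passed the 1.5-fold limit, yet 48 were higher at FDR under 0.05 (median 0.34), and their summed level went from 41300 and 41000 to 52500 and 52000 CPM. RPS12, the member of highest mean RPKM, was at 0.42 ± 0.02. Among 47 translation factors 6 fell (12.8%, near the genome-wide share) and 0 rose. Those that fell included EIF3B (-1.11 ± 0.03), a subunit of the initiation complex, and the cap-binding protein EIF4E (-0.83 ± 0.07).

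MYC, which drives both groups in many cells, was at -0.38 ± 0.03, below the fold limit, with 9785 and 9554 reads in shCtrl and 6846 and 7991 in shPRMT9 libraries. MYC network and target genes fell in 10 of 33 cases and rose in 3. ODC1, the rate-limiting enzyme of polyamine synthesis, fell by 0.94 ± 0.03. MXI1 and MXD4, which encode proteins that compete with MYC for its partner MAX, rose by 1.30 ± 0.03 and 0.94 ± 0.06.

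Amino acid supply genes fell broadly. Of 41 tested ATF4 and amino acid stress genes, 21 fell and 3 rose (median -0.75). ASNS had 1712 and 1661 reads in shCtrl and 474 and 617 in shPRMT9 libraries (-1.63 ± 0.05), and PSAT1, an enzyme of serine synthesis, had 4500 and 4327 and then 1344 and 1615 (-1.58 ± 0.04). SLC7A11 and CHAC1, given above, belong to this list too. ATF4 mRNA was at -0.32 ± 0.03, below the fold limit. The 3 that rose were DDIT4, DDIT3 (the CHOP gene, 1.04 ± 0.08) and PPP1R15A (1.52 ± 0.06), which encodes GADD34 and restores translation after stress. Of 22 cytosolic aminoacyl-tRNA synthetase genes, 8 fell and 0 rose (median -0.37), with IARS at -1.02 ± 0.03 and MARS at -1.02 ± 0.03.

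Genes of glutamine and creatine use changed in both directions. GLUL, glutamine synthetase, rose from 15964 and 15788 reads to 31979 and 36323 (1.10 ± 0.02), while the glutamine importers SLC38A1 and SLC1A5 fell by 1.12 ± 0.03 and 0.88 ± 0.03. The aspartate transaminase gene GOT1 fell by 1.17 ± 0.06. SLC6A8, the creatine importer, had 396 and 308 reads in shCtrl and 3636 and 4260 in shPRMT9 libraries (3.49 ± 0.05). It rose together with CKB, described above, whose product uses creatine.

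Chaperone and proteasome genes fell. Of 33 tested heat shock and chaperone genes 13 fell and 2 rose (median -0.52), led by HSPH1, a nucleotide exchange factor of HSP70, which had 12267 and 11884 reads in shCtrl and 4482 and 5180 in shPRMT9 libraries (-1.32 ± 0.03). CCT6A, a subunit of the cytosolic chaperonin, fell by 1.24 ± 0.03 and STIP1, which links HSP70 to HSP90, by 0.93 ± 0.03. HSF1, the heat shock factor, was at -0.35 ± 0.05. In the ER, 6 of 22 unfolded protein response genes fell and 1 rose, with SDF2L1 at -1.34 ± 0.10 and HYOU1 at -1.08 ± 0.04. Of 30 proteasome genes 10 fell and 0 rose (median -0.51), and their sum went from 3780 and 3770 to 2680 and 2690 CPM. PSMD1, a subunit of the regulatory particle, fell by 1.22 ± 0.04.

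Hypoxia-inducible and glycolysis genes rose, while HIF1A mRNA did not. Of 45 tested, 23 rose and 0 fell (median 0.66). NDRG1, a stress-inducible gene, had 1056 and 872 reads in shCtrl and 7324 and 8387 in shPRMT9 libraries (3.03 ± 0.04). PFKFB4, which makes an activator of glycolysis, rose by 3.01 ± 0.07 from 182 and 156 reads to 1281 and 1438, and ALDOC by 2.66 ± 0.06. HIF1A had 1849 and 1767 reads in shCtrl and 1209 and 1488 in shPRMT9 libraries (-0.42 ± 0.04). DDIT4 and MXI1 are on this list as well as on those above. Of the 6 tested members of the metallothionein list 5 rose and 0 fell, and the 4 with the largest rise ran from MT1X at 1.78 ± 0.08 (252 and 310 reads, then 942 and 985) to MT1E at 1.20 ± 0.06. The sixth member, MTF1, which encodes the transcriptional activator of these genes and is named after its value was seen, had 1064 and 1012 reads in shCtrl and 738 and 816 in shPRMT9 libraries (-0.42 ± 0.05). The NRF2 list lay near the genome-wide shares, with 4 of 35 higher (11.4%) and 5 lower (14.3%). In it the heme-degrading enzyme HMOX1 was at 1.84 ± 0.23, the glutathione synthesis gene GCLC at -0.89 ± 0.08 and NFE2L2 mRNA at -0.11 ± 0.04.

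**Figure D4:**
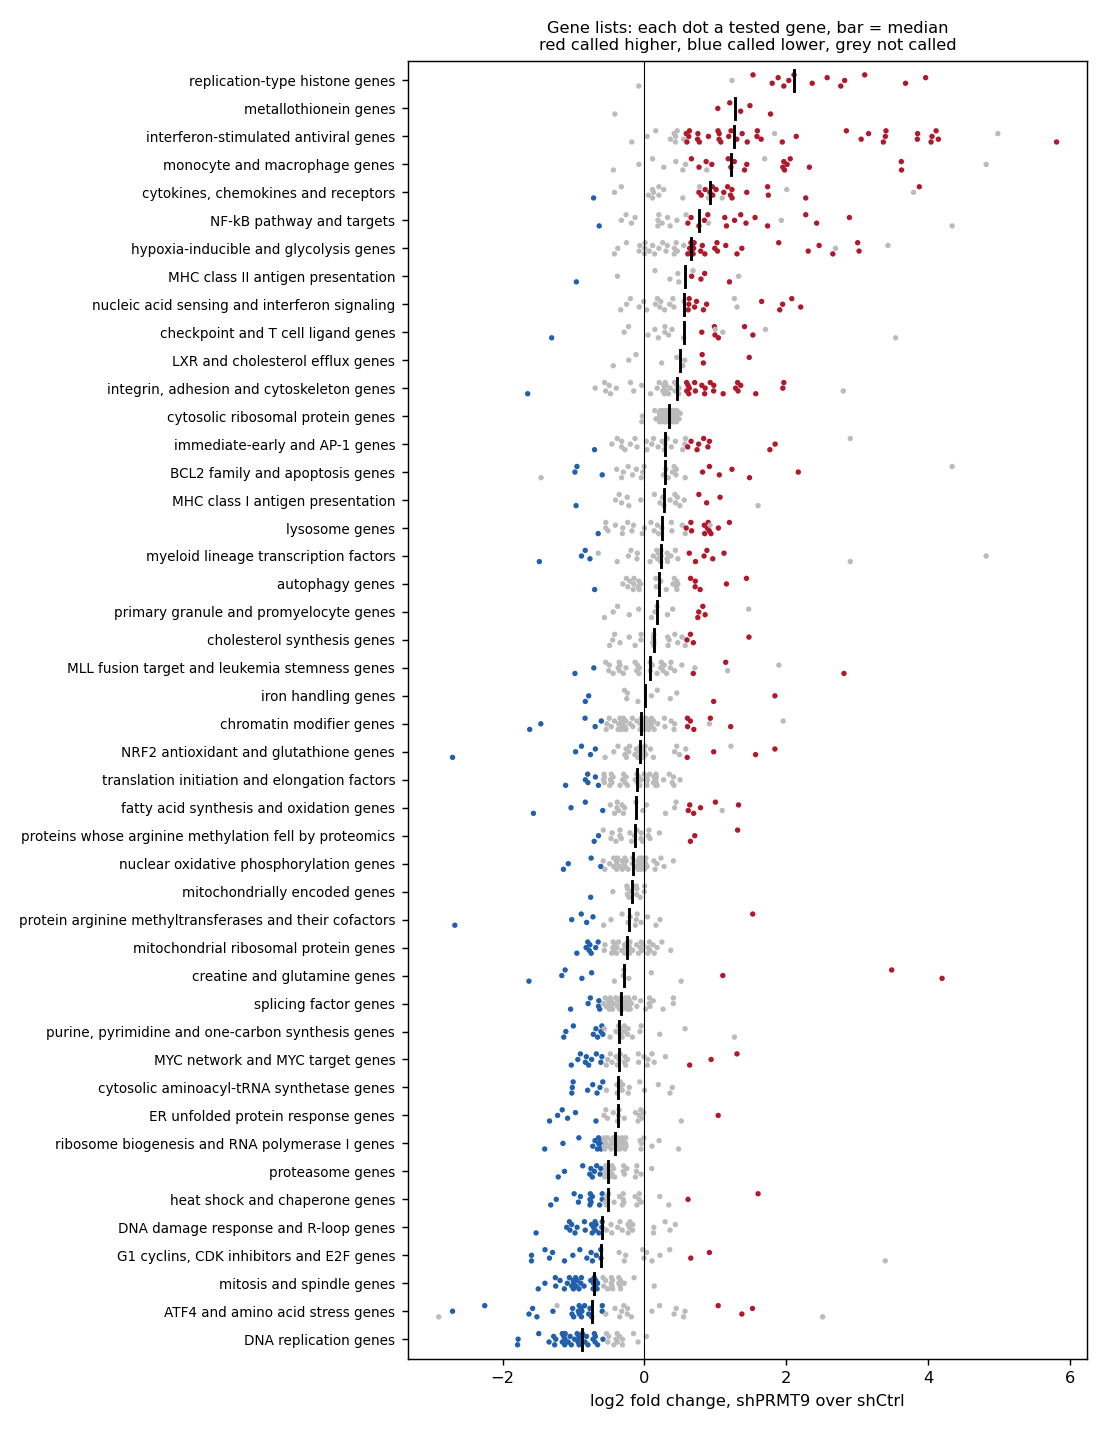
Log2 fold changes (x axis, shPRMT9 over shCtrl) of the tested members of each gene list, 1 dot a gene, red where called higher, blue where called lower and grey where not called (grey dots far from 0 had too low an RPKM or too wide an error), with a bar at the list median. Lists run from DNA replication (median -0.87) at the bottom to replication-type histone genes (2.11) at the top.

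Genes of monocytes and macrophages rose. In bulk RNA, more cells of a type and more RNA per cell cannot be told apart. Of 27 tested, 17 rose and 0 fell (median 1.22), and the summed level of the 44 listed went from 1170 and 1160 to 2160 and 2190 CPM. CSF1R, the receptor of the macrophage growth factor, had 307 and 280 reads in shCtrl and 1144 and 1297 in shPRMT9 libraries (2.06 ± 0.06). SPP1 (osteopontin) had 63 and 58 reads and then 687 and 810 (3.63 ± 0.10), and GPNMB, a lysosomal glycoprotein of macrophages, rose by 3.62 ± 0.17. The integrin chains ITGAM (CD11b) and ITGAX (CD11c) rose by 1.95 ± 0.05 and 1.97 ± 0.11, whereas ITGB1, the chain shared by many matrix receptors, fell by 1.65 ± 0.04. Several defining markers were nearly unread throughout, such as CD14, at 4 and 6 reads in shCtrl and 8 and 7 in shPRMT9 libraries, and C1QB, at 0.

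Of 33 tested immediate-early genes 9 rose and 1 fell, with the mRNA decay factors ZFP36L1 and ZFP36 at 1.84 ± 0.08 and 0.90 ± 0.03. Of 49 tested integrin, adhesion and cytoskeleton genes 21 rose and 1 fell (median 0.46). Of 32 tested myeloid lineage transcription factors 6 rose (18.8%) and 4 fell (12.5%, near the genome-wide share). LMO2 rose by 0.96 ± 0.03 and TFEC by 1.12 ± 0.05, while BATF3 fell by 1.48 ± 0.16, CEBPG by 0.89 ± 0.04 and CEBPB by 0.77 ± 0.12. Primary granule genes rose in 4 of 15 cases and fell in 0.

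Splicing, respiration and chromatin genes are given next. Of 48 splicing factor genes 6 fell (12.5%, near the genome-wide share) and 0 rose, and 37 were lower by the FDR limit alone. SNRPG, a core protein of the spliceosomal particles, was at -1.04 ± 0.10. Of 45 nuclear genes of oxidative phosphorylation 4 fell (8.89%, below the genome-wide share) and 0 rose. CYCS, cytochrome c, was among those that fell, with 4475 and 4185 reads in shCtrl and 1826 and 2094 in shPRMT9 libraries (-1.14 ± 0.03). Mitochondrial ribosomal protein genes fell in 8 of 44 cases (18.2%), with MRPL20 at -0.95 ± 0.05. Of the 13 mitochondrially encoded genes, MT-ND6 alone fell past the call limits, by 0.76 ± 0.03. By the FDR limit alone 11 of the 13 were lower and 0 higher, with a median of -0.18 over the list. MT-ND4, like MT-ND6 a subunit of complex I, was at 0.00 ± 0.02. Among 55 chromatin modifier genes 6 rose and 5 fell, near the genome-wide shares. The histone demethylases KDM5B and KDM6B rose by 1.22 ± 0.04 and 0.93 ± 0.06. HMGB2, a DNA-bending protein of dividing cells, fell by 1.62 ± 0.03 from 9234 and 8829 reads to 2827 and 3049, and the maintenance DNA methyltransferase DNMT1 fell by 0.84 ± 0.03.

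Few targets of the KMT2A fusion and genes of leukemia stemness passed the call limits. Of 36 tested, 3 rose and 2 fell, below the genome-wide shares, with a median of 0.08. By the FDR limit alone 17 were higher and 15 lower, mostly within 1.5-fold. HOXA9 was at 0.26 ± 0.04 and MEIS1 at 0.24 ± 0.04, both below the fold limit. The membrane gene EMP1 had 23 and 26 reads in shCtrl and 168 and 178 in shPRMT9 libraries (2.81 ± 0.19), and HOXA3 rose by 1.15 ± 0.10. BCL2, the survival gene, fell by 0.98 ± 0.04 from 2364 and 2305 reads to 1085 and 1282. In its family, BCL2A1 rose by 2.17 ± 0.24, and so did BMF, a death-promoting member, by 1.48 ± 0.07.

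Proteins with reduced arginine methylation after KD in this line, by the proteomics of the study, were taken as a list to see whether their mRNAs changed. Of 23 such genes, 3 rose and 2 fell, near the genome-wide shares, with a median of -0.14. VIM, described above, TRIP6 (0.71 ± 0.04) and WAS (0.65 ± 0.04) rose, and HNRNPA2B1 and ELAVL1, RNA-binding proteins, fell (-0.71 ± 0.03 for ELAVL1). With the trend on transcript length and GC content taken out, 1 of the 23 rose and 2 fell, TRIP6 and WAS then being at 0.58 and 0.57, below the fold limit. PABPC1, the cytoplasmic poly(A)-binding protein, named here after its value was seen, had 73841 and 70909 reads in shCtrl and 63094 and 71299 in shPRMT9 libraries (-0.11 ± 0.02).

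The share of genes that changed moved with GC content. In the quintile of genes with the lowest transcript GC (23.5% to 42.5%) 7.01% rose and 16.2% fell, and in the quintile with the highest (57.7% to 76.8%) 17.9% rose and 7.47% fell. Across quintiles of exon length the shares lay between 9.54% and 12.9% for rises and between 9.97% and 12.8% for falls. With a per-library trend on length and GC taken out, 1813 genes rose and 1892 fell, and 3318 of the 3744 calls remained in the same direction. The part of GC content in single results was not tested beyond this refit.

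**Figure D5:**
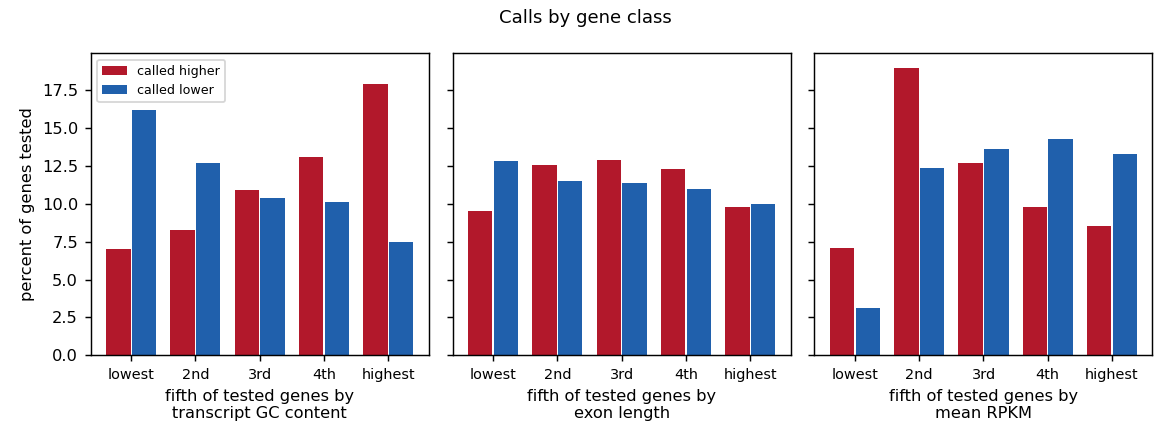
Percent of tested genes that rose (red) or fell (blue) in each quintile of the tested genes by transcript GC content, by exon length and by mean RPKM. Rises go from 7.01% to 17.9% and falls from 16.2% to 7.47% between the lowest and the highest quintile of GC.

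The effect of KD was set beside that in THP1 cells, another AML line, by a test of the difference over all 8 libraries, in which 42.2% of 19288 genes differed at FDR under 0.05. The label fields of the THP1 libraries carry the letters OCI, and no label says what these letters stand for. PRMT9 fell by 2.28 in THP1, and the difference from Molm13 did not pass the test (edgeR adjusted p = 0.146). SLC7A11, ASNS and PSAT1 fell in Molm13, whereas in THP1 their log2 fold changes were 0.22, 0.34 and 0.30, and the differences of 2.93 ± 0.10, 1.97 ± 0.09 and 1.89 ± 0.05 passed the test. HIST1H2AC was at 0.00 in THP1 (difference -3.96 ± 0.17), SLC6A8 at -0.30 (-3.77 ± 0.12) and MCM10 at -0.15 (1.64 ± 0.07), all past the test. NDRG1 was at 0.79 in THP1 (difference -2.23 ± 0.06). By contrast VIM was at 1.28 in THP1, with a difference of -0.03 ± 0.04 that did not pass the test, and for SPP1 (2.75 in THP1) the difference of -0.87 ± 0.44 did not either. Each line was counted in a table of its own and the labels give no batch, so line and any batch cannot be told apart.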

How the data were processed

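Per the labels, total RNA of RIN above 8 was isolated with Trizol, libraries were made with a Kapa mRNA HyperPrep kit and sequenced on a HiSeq 2500 system, and the submitters' processing notes name TopHat2 2.0.8, HTSeq 0.11.2, edgeR 3.30.3 and the build hg38. The authors deposited raw read counts per gene, 1 table a line, with gene symbols, positions and total exon length. Strand handling in counting is not given in the sources used here, so overlapping and antisense genes may share reads.

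Counts were tested with edgeR 4.0.16 (R 4.3.3): filterByExpr, TMM, quasi-likelihood F test of shPRMT9 against shCtrl, Benjamini-Hochberg over 16446 genes. A gene was called, or said to rise or fall, at FDR under 0.05, fold change above 1.5 and RPKM above 1 in at least 1 library, the limits of the study's methods. The SE was taken as |log2 fold change| / sqrt(F). The 2 lines were fitted separately, and a line by hairpin interaction was fitted over the genes shared by both tables. RPKM used the deposited exon length. GC content came from GENCODE 29 transcripts.

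The members and gene lists were chosen with earlier results of these data known. The text names PRMT genes, the 10 largest rises and falls (mean of at least 20 reads, groups not overlapping), the 10 most abundant called genes each way, up to 4 called list members each way, or the 2 most abundant tested members where fewer than 2 were called, the near-zero genes with the 5 highest counts, and key regulators. Some genes that this rule selects are not reported here. Promoters were RefSeq sequences (the first listed for a symbol), matched by symbol or older symbol on the same chromosome.

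Alternatives were other scalings and filters, DESeq2 1.42.0, limma 3.58.1 voom, glmTreat, other call limits, a replicate block, an offset for length and GC, and each library left out in turn. On simulated data for this comparison (16166 genes run), 98.5% of 200 genes changed 1.8-fold passed the FDR and fold limits. All of the changed genes had at least 50 reads on average. Every gene was given the same dispersion, and the RPKM limit was not applied. The simulation therefore does not say how often genes at fewer reads or of wider spread are found.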

Additional observations from a re-analysis of the deposited data

Results flagged for a closer look

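Of 21 tested genes with the largest rises and falls in Molm13, 14 passed the test of the difference between lines, against 42.2% of all genes. They were chosen for the size of their change in Molm13, and that choice favors smaller changes in THP1. IFI44 (difference -0.27) and PNCK, which had no read in THP1, were among those that did not pass. The 13 genes that passed and are named are given here. Each value is the log2 fold change in THP1 minus that in Molm13. The differences were -4.36 for CKB, -4.21 for EHD2 and -3.96 for HIST1H2AC, none of which rose in THP1 (-0.17, 0.11 and 0.00). ISGs were higher after KD in both lines and less so in THP1, with differences of -1.48 for OAS2, -1.20 for IFI44L, -1.16 for EPSTI1 and -0.75 for IFIT1. Of the genes that fell, CHAC1 differed by 3.30, SLC7A11 by 2.93, XXbac-BPG252P9.9 by 2.10, RP11-15B17.1 by 1.99, GPR180 by 1.78 and HMGB1P5 by 1.57. CHAC1 was higher after KD in THP1 (1.04). In XXbac-BPG252P9.9 the Molm13 shCtrl libraries were far apart, at 291 and 124 reads.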

How the results depend on the processing

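A fold limit of 2 left 796 rises and 506 falls, FDR alone gave 5493 and 5515, and glmTreat against 1.5-fold gave 1148 falls. These limits call fewer or more genes by construction. The replicate block gave 1861 and 1850 and moved 1 named gene, the keratin marker KRT18, to an FDR above 0.05. Deviations of same-numbered libraries had a correlation of -0.087 over the tested genes. With 2 libraries a group this cannot show what the numbers mark. Leaving out 1 library gave 1811 to 1889 rises, 1749 to 1852 falls and -2.81 to -2.55 for PRMT9. Of 270 named genes, 50 lost their side of the FDR limit by glmTreat, 10 by DESeq2, 7 with the length and GC offset, 3 by upper quartile scaling, 2 without the filter, 1 with at least 50 reads and 3 to 7 with a library left out, and 0 by voom, RLE size factors or library size alone. List counts that moved by over 1.5 times included ATF4 genes that rose (3, and 5 by upper quartile scaling) and chromatin modifier genes that fell (5, and 8 with the offset). Replication-type histone genes that rose moved too (13, and 7 with at least 50 reads), as did the genes of the proteomics list that rose (3, and 1 with the offset). All 30 lists with a median of at least 0.3 in size kept the sign of the median in every alternative that gives list medians. Near 0, signs turned: MB21D1 was 0.036 by upper quartile scaling, 0.012 with at least 50 reads, 0.078 with the length and GC offset and -0.066 to 0.043 with a library left out, MT-ND4 was -0.011 without the filter and -0.00051 to 0.0203 with a library left out, the median of chromatin modifier genes was 0.0054 by upper quartile scaling, and that of iron handling genes -0.0067 to 0.0165 with a library left out. The cause was not tested. With 2 libraries a group, genes at a few reads had wide errors.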

Other observations

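Some genes appeared after KD from nearly no reads. In 9 genes both shCtrl libraries had at most 3 reads and both shPRMT9 libraries at least 20, and no gene showed the reverse. NEFM, a neurofilament subunit, had no read in either control and 31 and 32 reads after KD, at least 10.6-fold higher against a floor of 3 reads a library. CCL4L2, a chemokine gene with near-identical copies, between which reads cannot be told apart, had 1 read in each control and 38 and 37 after KD. JPH3, a junctophilin, had 2 and 1 reads and then 34 and 30, S100A1, a calcium-binding protein, 2 and 3 and then 22 and 42, and the pseudogene RP11-465B22.3 3 and 2 and then 25 and 36.

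Lysosome genes rose in 11 of 33 cases and fell in 1 (LAMP2, -0.65 ± 0.03), with GM2A, an activator of ganglioside breakdown, at 1.20 ± 0.04, the acid alpha-glucosidase GAA at 1.04 ± 0.06 and the protease CTSB at 0.94 ± 0.03. Of 28 autophagy genes 6 rose and 1 fell, with the cargo receptors OPTN at 1.44 ± 0.07 and SQSTM1 at 1.16 ± 0.03. In lipid handling, MYLIP, which degrades the LDL receptor, rose by 1.48 ± 0.03 and ABCA1, a cholesterol exporter, by 0.83 ± 0.11, and 4 of 25 cholesterol synthesis genes rose (TM7SF2, 1.47 ± 0.12). ELOVL6, a fatty acid elongase, fell by 1.57 ± 0.13 and FADS1, a desaturase, by 1.04 ± 0.08. By class, 17.8% of 534 lincRNAs rose and 4.87% fell. On chromosome 19, 16.9% of 1113 tested genes rose and 6.74% fell. These class shares were not adjusted for GC content, and in the quintile of highest GC 17.9% of genes rose and 7.47% fell.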
